A study of Mus musculus with 18 samples.

Results

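The comparison described here is that of medullary thymic epithelial cells of the lo gate (KO mTEClo, 3 libraries) with cortical thymic epithelial cells (KO cTEC, 3 libraries), both sorted from the thymus of mice with a targeted deletion in the gene Aire. These are 6 of the 18 libraries of the series, taken by their titles, and all genes with 0.1 RPKM or more in 3 or more of the 6 libraries were included, which are 16462 of the 23063 genes in the tables. RPKM is a level scaled to gene length and to the total of the library. The mice were 6 to 8 weeks old, and every sample of the series, wild type (WT) included, carries the strain name of the Aire mutant line B6.129S2-Airetm1.1Doi/J in the labels. WT mTEClo and WT cTEC (3 libraries each) serve to ask whether the population difference depends on the genotype. The limma fit also took the spread of each gene from all 18 libraries, WT included. The labels name flow cytometry of enriched stroma as the source of the cells, but neither the protein behind the lo gate nor whether the replicates of a group come from separate mice. The p-values therefore measure the spread between libraries of a group, which may be technical.

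Thymic cortex and medulla are built by epithelial cells with a common progenitor. Cortical cells attract and nourish immature thymocytes and present the peptides on which positive selection acts, with the help of a proteasome subunit and proteases of their own. Medullary cells of the lo type are a mixed population that holds immature cells, cells that secrete chemokines for mature thymocytes, tuft cells with the chemosensory machinery of taste, and cells on the way to keratinisation. Aire drives the transcription of genes of peripheral tissues in mature medullary cells. In bulk samples such as these, fewer cells of a type and less RNA per cell cannot be told apart.

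Depth, as aligned bases on genes, was 7.798, 6.48 and 9.43 Gb in KO mTEClo and 9.83, 9.12 and 11.3 Gb in KO cTEC. KO cTEC replicate 1 stood apart from the other KO cTEC libraries. Its mean Pearson correlation over the tested genes was 0.959 with those 2 libraries and 0.938 with the KO mTEClo libraries, and on the first principal component of the 12 mTEClo and cTEC libraries (58.7% of the variance) it lay at 0.703, between 68.6, 66.3 and 57.7 for KO mTEClo and -37.7 and -42.1 for KO cTEC replicates 2 and 3. It also held the highest summed RPKM of the tuft cell list among the cTEC libraries, as given below. Counts over all genes and for many lists are given with and without it. For single genes this was done only in part, so a gene given without such a value may depend on it.

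Aire itself was at 33.1, 21.5 and 16.3 RPKM in KO mTEClo, against 95.6, 35.9 and 27.00 RPKM in KO cTEC. The groups overlapped, with KO cTEC replicate 1 above all others, and the fold change of Aire (log2 fold change -0.997, SE 0.43, adjusted p = 0.07) did not pass the threshold. With 1 value per gene and none per exon, the deletion could not be checked. In WT the values were 7.75, 9.13 and 12.8 RPKM in WT mTEClo, against 2.09, 3.95 and 7.39 RPKM in WT cTEC, and the contrast of mTEClo and cTEC was lower in KO than in WT (difference -2.27, SE 0.60, adjusted p = 0.039).

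The first question is how many genes separate the 2 populations when Aire is deleted. Of the 16462 genes, 7105 (43.2%) were called, of which 3675 (22.3%) were higher and 3430 (20.8%) were lower in KO mTEClo at an adjusted p under 0.05 (limma on log2(RPKM + 0.1), Benjamini-Hochberg adjustment over all tested genes), and 1512 (9.18%) and 1028 (6.24%) of the tested genes were so by 2-fold or more. The median log2 fold change over all tested genes was 6e-04, and the medians of the lists below are to be read beside it. Without KO cTEC replicate 1, 4033 of 16213 genes were higher and 4033 lower (24.9% each), and 3384 of the 3675 and 3083 of the 3430 genes were called in the same direction. When the libraries were centred on housekeeping genes, the calls were 4085 higher and 2490 lower, so that 62.1% of them were higher against 51.7%, and a fit to the 6 libraries alone called 2445 and 1970.

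Few genes were on in one population and off in the other. At 1 RPKM or more in all 3 KO mTEClo libraries and under 0.1 RPKM in all 3 KO cTEC libraries stood 4 genes, Acta1, Fam183b, C1ql2 and Gpr139. The reverse held for 1 gene, Npr3, a receptor that clears natriuretic peptides, at 0.0624, 0.0805 and 0.0759 RPKM in KO mTEClo, against 1.18, 2.53 and 2.44 RPKM in KO cTEC (log2 fold change -3.57). Npr3 did not pass the filter without KO cTEC replicate 1. Among the tested genes, 176 reached 0.1 RPKM in all KO mTEClo libraries and in no KO cTEC library, and 73 the other way round, so these had to differ. The 5 genes named here are among them, and their fold changes are descriptions with no test.

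**Figure D1:**
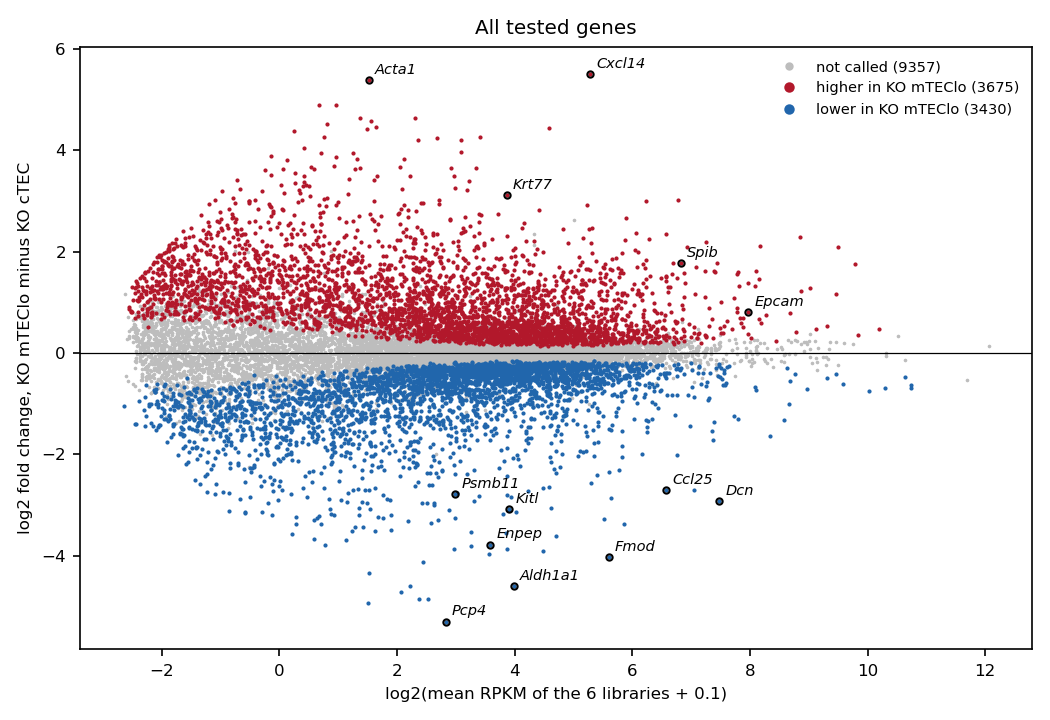
Log2 fold change of KO mTEClo minus KO cTEC (vertical axis) against the log2 mean RPKM of the 6 libraries plus 0.1 (horizontal axis) for all 16462 tested genes, one point per gene. Red points are the 3675 genes called higher and blue points the 3430 called lower in KO mTEClo. Cxcl14 lies highest at 5.496 and Pcp4 is the lowest labelled gene at -5.30.

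The largest rise was that of Cxcl14, a chemokine made by many epithelia (chr13:56288643-56296551 in mm10). Its level was 88.2, 78.03 and 61.4 RPKM in KO mTEClo, against 4.25, 1.13 and 0.766 RPKM in KO cTEC. Every KO mTEClo library stood far above every KO cTEC library (log2 fold change 5.496, SE 0.44, adjusted p = 2.2e-07). Next came Acta1, skeletal muscle actin, at 8.76, 4.62 and 3.12 RPKM in KO mTEClo, against 0, 0.0551 and 0.0202 RPKM in KO cTEC (log2 fold change 5.38). C1ql2, a secreted protein of the complement C1q family known from synapses, was at 3.76, 2.93 and 2.296 RPKM in KO mTEClo, against 0.00765, 0 and 0 RPKM in KO cTEC, with all cTEC libraries at or near 0 (4.89). Acta1, C1ql2, Fam183b and Gpr139 passed the filter only through KO mTEClo, so no p-value of this comparison is given for them. Barx1, a homeobox factor known from stomach and tooth development, was at 12.99, 7.41 and 7.82 RPKM in KO mTEClo, against 0.556, 0.0607 and 0.381 RPKM in KO cTEC (4.64, adjusted p = 4.2e-07). Dll3, a Notch ligand that acts within the cell, was at 7.29, 5.51 and 3.84 RPKM in KO mTEClo, against 0.354, 0.139 and 0.00905 RPKM in KO cTEC (4.58, adjusted p = 2e-07). The other genes among the 15 largest rises were Fam183b (4.89), Sln (sarcolipin, a regulator of the muscle calcium pump, 4.63), the bitter taste receptors Tas2r140 (4.52) and Tas2r104 (4.46), the surface protein Cd177 (4.43), the kallikrein protease Klk6 (4.42), the orphan receptor Gpr139 (4.37), Slitrk4, a neuronal membrane protein (4.27), Lor, which encodes loricrin of the cornified envelope (4.27), and Clca4 (4.25). The adjusted p-values of those tested without this limit ran up to 0.00019. A call and no overlap between the groups were conditions for the choice of these 15 genes, so neither is a further result. Cd177 reached 63.02, 43.1 and 29.8 RPKM in KO mTEClo, against 2.96, 3.998 and 0.545 RPKM in KO cTEC.

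The largest fall was that of Pcp4, which encodes a small calmodulin-binding protein. Pcp4 was at 0.209, 0.0892 and 0.456 RPKM in KO mTEClo, against 7.13, 12.7 and 21.4 RPKM in KO cTEC (log2 fold change -5.30, SE 0.39, adjusted p = 1.1e-07). Aldh1a1, which makes retinoic acid, was at 0.860, 0.607 and 2.35 RPKM in KO mTEClo, against 18.5, 32.2 and 39.7 RPKM in KO cTEC (log2 fold change -4.60, SE 0.39, adjusted p = 3.9e-07). Both were lower in every KO mTEClo library than in every KO cTEC library, which was a condition for the choice of the 15 falls. Among the 15 were also the small leucine-rich proteoglycans Ogn (osteoglycin, -4.85) and Fmod (fibromodulin, -4.03), the integrin chain Itga8 (-4.12) and Srpx (-3.78), all matrix proteins or, for Itga8, a receptor of the matrix. Fmod was at 3.82, 4.76 and 7.27 RPKM in KO mTEClo, against 48.99, 99.6 and 126 RPKM in KO cTEC. Serpinf1, a secreted factor that inhibits the growth of vessels, was at 2.41, 2.303 and 2.75 RPKM in KO mTEClo, against 21.4, 45.3 and 60.1 RPKM in KO cTEC (-3.91, adjusted p = 1.8e-07). Further falls were those of the neurofilament gene Nefm (-4.33), the sodium channel gene Scn1a (-3.86), Abat, which breaks down GABA (-3.80), the protease Prss23 (-3.96), the aminopeptidase Enpep, known as the surface marker Ly51 (-3.78), and the methyltransferase Inmt (-3.68). Igj, the joining chain of antibodies, was at 0.123, 0.238 and 0.152 RPKM in KO mTEClo, against 17.1, 1.73 and 14.5 RPKM in KO cTEC (-4.86, adjusted p = 7.1e-05). Apol7c was at 0.927, 0.622 and 0.374 RPKM in KO mTEClo, against 28.9, 12.5 and 2.94 RPKM in KO cTEC (-3.87, adjusted p = 0.0004). In these last genes the KO cTEC libraries spread widely, and markers of B cells and dendritic cells are given further below.

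The identity genes of the cortex were compared first among the lists. Of 16 genes, 15 were tested (Cfc1, at up to 0.133 RPKM, was filtered out), of which 13 were lower, 1 higher and 1 not called, against 20.8% and 22.3% of all genes, with a median of -2.05. The counts of the lists that follow are to be read against the same 2 shares. The counts were the same without KO cTEC replicate 1, and the median was -2.31. Psmb11, the thymoproteasome subunit that marks the cortex (chr14:54625310-54629556), was at 1.603, 2.12 and 1.805 RPKM in KO mTEClo, against 10.1, 20.5 and 10.99 RPKM in KO cTEC (log2 fold change -2.78, SE 0.27, adjusted p = 1.2e-06). Prss16, the thymus-specific serine protease, was at 31.4, 39.9 and 30.6 RPKM in KO mTEClo, against 170.4, 337 and 188 RPKM in KO cTEC (log2 fold change -2.71, SE 0.24, adjusted p = 5.9e-07). Ly75, which encodes the endocytic receptor DEC-205, was at 7.57, 8.05 and 9.37 RPKM in KO mTEClo, against 38.4, 48.9 and 43.3 RPKM in KO cTEC (log2 fold change -2.37, SE 0.13, adjusted p = 6.3e-09). In all 3 the groups did not overlap, and every KO mTEClo library was several times lower than every KO cTEC library.

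Ligands of thymocytes followed the same direction. Ccl25, the chemokine that draws progenitors through CCR9, was at 25.2, 24.9 and 22.97 RPKM in KO mTEClo, against 144, 238 and 119 RPKM in KO cTEC (-2.71, adjusted p = 1.4e-06). Cxcl12, which acts on thymocytes of the cortex through CXCR4, was at 18.8, 22.97 and 22.2 RPKM in KO mTEClo, against 62.4, 113 and 98.2 RPKM in KO cTEC (-2.05, adjusted p = 3.2e-07). Kitl, the ligand of the receptor KIT, was at 2.798, 2.64 and 3.75 RPKM in KO mTEClo, against 19.8, 31.9 and 28.7 RPKM in KO cTEC (-3.08, adjusted p = 3.3e-09). Each of these was lower in all KO mTEClo libraries, without overlap. Dll4, the Notch ligand that commits progenitors to the T lineage, was lower too, at 2.11, 2.78 and 2.001 RPKM in KO mTEClo, against 3.85, 5.903 and 2.705 RPKM in KO cTEC, and the groups overlapped (-0.77, adjusted p = 0.016). Il7, the cytokine on which early thymocytes depend, was at 66.1, 66.9 and 66.4 RPKM in KO mTEClo, against 48.02, 83.3 and 74.3 RPKM in KO cTEC, with the KO mTEClo values inside the range of the KO cTEC values (-0.01, adjusted p = 0.98). The transcription factor Foxn1, which directs all thymic epithelium, was at 21.8, 21.8 and 21.00 RPKM in KO mTEClo, against 31.1, 33.6 and 28.1 RPKM in KO cTEC, a small fall without overlap (-0.52, adjusted p = 0.00042). Others lower were Cd83, which stabilises MHC class II (-2.73), Enpep (-3.78), Bmp4 (-1.61), Tbata (-1.34) and the cathepsin Ctsl (-0.61). Dll4 was not called without KO mTEClo replicate 1 or 3 or KO cTEC replicate 2 (-0.49 to -0.72, adjusted p = 0.053 to 0.1). Ctsl was not called without KO mTEClo replicate 1 or 3 or KO cTEC replicate 2 or 3 (-0.39 to -0.60, adjusted p = 0.064 to 0.17). Ly51, the product of Enpep, is a common marker for gating cTEC and the labels do not name the antibodies, so whether the gate used it is unknown. Fgf21, a metabolic hormone, went the other way, at 38.4, 34.6 and 21.6 RPKM in KO mTEClo, against 20.4, 5.896 and 3.24 RPKM in KO cTEC (2.05, adjusted p = 0.0019).

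Psmb11 and Enpep are shown with the 250 bases before their RefSeq start (build GRCm38.p6), since genes of this list fell together and the pentamer GACGC is known as the core of FOXN1 binding sites. Capitals mark GACGC or its reverse complement GCGTC, searched on both strands. At least 1 match was found in the upstream windows of 6 of the 13 list genes with an entry (46.2%, Ccl25, Cxcl12, Enpep, Fgf21, Kitl and Psmb11), and in those of 24.8% of 27025 genes. Of these 6, Fgf21 was called higher and not lower. Among medullary identity genes 2 of 9 with an entry had a match (22.2%), and among tuft cell list genes 3 of 15 (20%). A match describes letters and not binding.
Psmb11, chr14:54625060-54625309, plus strand: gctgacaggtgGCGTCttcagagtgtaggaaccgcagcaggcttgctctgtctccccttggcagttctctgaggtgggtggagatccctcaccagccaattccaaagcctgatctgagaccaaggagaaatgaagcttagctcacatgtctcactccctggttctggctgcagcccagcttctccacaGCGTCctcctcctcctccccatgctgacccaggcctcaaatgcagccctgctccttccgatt
Enpep, chr3:129332750-129332999, minus strand: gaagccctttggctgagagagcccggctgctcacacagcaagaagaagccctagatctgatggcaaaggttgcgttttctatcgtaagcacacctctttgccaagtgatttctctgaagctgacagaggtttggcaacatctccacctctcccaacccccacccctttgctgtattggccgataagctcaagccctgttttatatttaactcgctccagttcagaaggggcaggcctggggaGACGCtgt
Psmb11 has 2 matches and Enpep 1, close to its start.

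**Figure D2:**
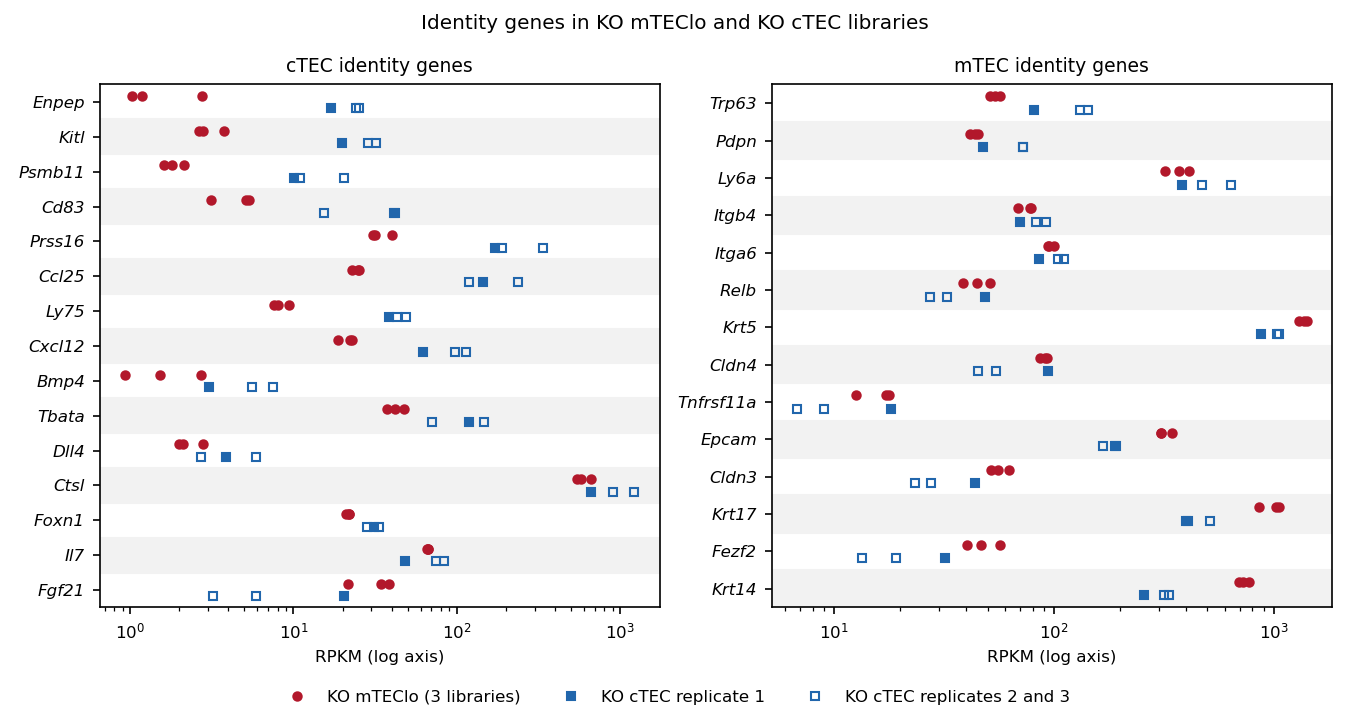
RPKM on a log axis for the 15 tested cTEC identity genes (left) and 14 mTEC identity genes (right), one point per library, with KO mTEClo as red circles drawn above KO cTEC as blue squares (filled for replicate 1). Genes are ordered by log2 fold change, and Enpep (-3.78) and Krt14 (1.28) stand at the ends.

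Medullary identity genes were less uniform. Of 16 genes, 15 were in the tables (Ccl21a had no entry) and all were tested, with 8 higher, 3 lower and 4 not called and a median of 0.56. Krt14, a keratin of the basal layer, was at 698, 774 and 728 RPKM in KO mTEClo, against 257, 316 and 335 RPKM in KO cTEC (1.28, adjusted p = 3.8e-06). Fezf2, a regulator of tissue-restricted genes in the medulla, was at 56.8, 46.5 and 40.3 RPKM in KO mTEClo, against 31.9, 19.2 and 13.4 RPKM in KO cTEC (1.23, adjusted p = 0.00051). Both were higher in every KO mTEClo library, without overlap between the groups. Also higher were Krt17 (1.16), Epcam (0.81), Krt5 (0.47) and the claudins Cldn3 (0.89) and Cldn4 (0.56), although Cldn4, at 93.1, 86.2 and 91.5 RPKM in KO mTEClo, against 93.7, 45.01 and 54.8 RPKM in KO cTEC, overlapped through KO cTEC replicate 1. Trp63, the p63 regulator of stratified epithelia, was lower, at 51.3, 54.2 and 56.6 RPKM in KO mTEClo, against 80.8, 132 and 144 RPKM in KO cTEC (-1.09, adjusted p = 3.2e-05), as were Pdpn (-0.54) and Ly6a (-0.41). Single libraries decided several of these calls, and the lower genes numbered 1 without KO cTEC replicate 2 or 3. Pdpn was not called without KO cTEC replicate 2 or 3 (-0.43, adjusted p = 0.055 to 0.061). Ly6a was not called without KO mTEClo replicate 1 or 2 or KO cTEC replicate 2 or 3 (-0.22 to -0.43, adjusted p = 0.069 to 0.22). Cldn4 was not called without KO mTEClo replicate 1, 2 or 3 or KO cTEC replicate 2 or 3 (0.33 to 0.59, adjusted p = 0.058 to 0.18). The receptor RANK, encoded by Tnfrsf11a (0.59, adjusted p = 0.1), Relb of the alternative NF-kB pathway (0.34, adjusted p = 0.18), Itga6 (-0.05, adjusted p = 0.75) and Itgb4 (-0.11, adjusted p = 0.52) were not called. Without KO cTEC replicate 1, 10 genes were higher, with Tnfrsf11a at 0.99 (adjusted p = 0.0017) and Relb at 0.57 (adjusted p = 0.016) among them.

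Pan-epithelial genes split, with 4 of 12 higher, 5 lower and a median of -0.10. Epcam was at 345, 308 and 307 RPKM in KO mTEClo, against 189, 167 and 192 RPKM in KO cTEC (log2 fold change 0.81, SE 0.08, adjusted p = 2.2e-06), and Cdh1, E-cadherin, was higher too (0.40, adjusted p = 0.00055). Pax9 (-0.58), Pax1 (-0.82) and Hoxa3 (-0.98), which pattern the pharyngeal pouches from which the thymus forms, were lower, and Krt18, at 822, 840.2 and 815 RPKM in KO mTEClo, against 727, 745 and 676 RPKM in KO cTEC, was not called (0.21, adjusted p = 0.15). Krt18 and Epcam were thus high in both populations, which are labelled as epithelial. Among 31 tested transcription factors of thymic epithelium, 14 were higher and 10 lower, with Sox9 higher at 65.95, 70.9 and 72.1 RPKM in KO mTEClo, against 47.2, 39.7 and 43.9 RPKM in KO cTEC (0.68, adjusted p = 1.5e-05). Isl1, a factor of endoderm and neurons, was lower, at 23.9, 23.4 and 30.9 RPKM in KO mTEClo, against 42.2, 60.5 and 75.8 RPKM in KO cTEC (-1.16, adjusted p = 2.6e-05). Eya1, a cofactor in thymus formation, was not called (0.07, adjusted p = 0.67).

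Of 22 tested chemokines 7 were higher (31.8%) and 6 lower (27.3%), beside 22.3% and 20.8% of all genes, with a median of -0.10 (2 of 24 listed had no entry). Besides Cxcl14, the higher genes included Cxcl9, a ligand of CXCR3, at 17.8, 18.3 and 16.9 RPKM in KO mTEClo, against 6.63, 3.99 and 2.305 RPKM in KO cTEC (2.14, adjusted p = 0.00014). Ccl8 was at 52.4, 65.6 and 42.02 RPKM in KO mTEClo, against 22.8, 13.9 and 8.75 RPKM in KO cTEC (1.89, adjusted p = 5e-05). Both were higher in every KO mTEClo library. Ccl19, which attracts mature thymocytes through CCR7, was higher with overlap, at 111, 101 and 67.6 RPKM in KO mTEClo, against 70.7, 36.6 and 25.1 RPKM in KO cTEC (1.17, adjusted p = 0.0032). Its receptor gene Ccr7 was lower, at 5.44, 4.02 and 1.04 RPKM in KO mTEClo, against 92.1, 41.3 and 12.4 RPKM in KO cTEC (-3.61, adjusted p = 0.00075). Ccl22, a ligand of CCR4, was at 6.85, 8.35 and 6.56 RPKM in KO mTEClo, against 148, 75.4 and 31.1 RPKM in KO cTEC (-3.27, adjusted p = 5.5e-05). KO cTEC replicate 1 was the highest KO cTEC library for each of these 3 genes, and Cxcl16 was not called (-0.14, adjusted p = 0.52). Of the 8 tested scavengers and receptors, 3 were lower and none higher (1 higher without KO cTEC replicate 1). The atypical receptor Ccrl1, which removes CCL25 and CCL21, was at 36.4, 44.6 and 44.4 RPKM in KO mTEClo, against 117, 202 and 202 RPKM in KO cTEC (-2.01, adjusted p = 1.7e-05). Cxcr7, which removes CXCL12, was at 2.57, 3.600 and 4.04 RPKM in KO mTEClo, against 7.85, 14.95 and 16.3 RPKM in KO cTEC (-1.86, adjusted p = 0.00012). The genes of these scavengers and of the ligands Ccl25 and Cxcl12 were all lower, and Ccrl2 was not called (0.21, adjusted p = 0.4).

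Cytokines and growth factors for thymocytes gave 11 of 22 genes lower and 7 higher, with a median of -0.31. Il33, an alarmin kept in the nucleus, was lower without overlap, at 5.71, 5.96 and 6.95 RPKM in KO mTEClo, against 26.5, 38.3 and 59.7 RPKM in KO cTEC (log2 fold change -2.65, SE 0.20, adjusted p = 1.2e-07). Igf1 (-1.84) and the interleukin 12 subunit Il12a (-2.21) were lower, whereas Bmp7, at 36.1, 33.7 and 29.4 RPKM in KO mTEClo, against 13.8, 16.1 and 18.1 RPKM in KO cTEC (1.04, adjusted p = 3.1e-06), and Tgfb3 (0.61, adjusted p = 3.7e-05) were higher.

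Genes for presenting peptides differed by class. Of 17 genes of the proteasome and class I pathway, 4 were higher and Psmb11 alone lower (2 lower without KO cTEC replicate 1), while quantile normalization gave 3 lower, centring on housekeeping genes 8 higher and a fit to the 6 libraries 1 higher. Those higher were Psmb5, the standard subunit whose place PSMB11 takes, at 40.8, 38.4 and 38.7 RPKM in KO mTEClo, against 32.02, 31.6 and 33.1 RPKM in KO cTEC (0.29, adjusted p = 0.0044), H2-D1 (0.35), the class I transactivator Nlrc5 (0.45) and Psme3 (0.21), each by a small amount without overlap. Except for that of Psmb5, these calls rested on single libraries, and the higher genes numbered 1 without KO mTEClo replicate 2 or KO cTEC replicate 3 and 2 without KO mTEClo replicate 1 or 3 or KO cTEC replicate 2 and 7 without KO cTEC replicate 1. H2-D1 was not called without KO mTEClo replicate 2 or KO cTEC replicate 2 or 3 (0.32 to 0.33, adjusted p = 0.051 to 0.062). Nlrc5 was not called without KO mTEClo replicate 1, 2 or 3 or KO cTEC replicate 2 or 3 (0.26 to 0.46, adjusted p = 0.056 to 0.15). Psme3 was not called without KO mTEClo replicate 1, 2 or 3 or KO cTEC replicate 3 (0.11 to 0.23, adjusted p = 0.051 to 0.2). B2m, the light chain of class I, was at 4308, 4769 and 4376 RPKM in KO mTEClo, against 4259, 4156 and 3748 RPKM in KO cTEC and was not called (0.15, adjusted p = 0.62). Class II presentation genes were lower, with 11 of 15 lower and none higher (1 without KO cTEC replicate 1) and a median of -0.53. H2-Aa, a classical class II chain, was at 1333, 1398 and 1197 RPKM in KO mTEClo, against 2079, 2162 and 2049 RPKM in KO cTEC (-0.68, adjusted p = 0.0034). H2-DMa, part of the peptide editor, was at 48.7, 59.6 and 56.8 RPKM in KO mTEClo, against 83.4, 117 and 135 RPKM in KO cTEC (-0.999, adjusted p = 3.4e-05), with H2-DMb1 (-0.62) and H2-DMb2 (-0.83) lower as well. Ciita, the master switch of the class, was at 22.6, 23.1 and 18.4 RPKM in KO mTEClo, against 31.9, 30.8 and 28.9 RPKM in KO cTEC (-0.52, adjusted p = 0.0011). Cd74, the invariant chain, was at 2727, 2813 and 2521 RPKM in KO mTEClo, against 3879.9, 3899.9 and 3868 RPKM in KO cTEC, without overlap but not called (-0.53, adjusted p = 0.062). Dendritic cells also express class II genes at high levels, and the list of their activated state was mostly higher in KO cTEC, with a summed RPKM of 399.8, 386 and 349 in KO mTEClo, against 1066, 660.3 and 408 in KO cTEC. Its part in these falls was not tested. Of 20 lysosomal and autophagy genes 5 were higher and 5 lower (25% each), near the 22.3% and 20.8% of all genes, and those lower numbered 3 without KO mTEClo replicate 1 or 3 or KO cTEC replicate 3. Map1lc3a, which coats autophagosomes, was at 158, 142 and 123 RPKM in KO mTEClo, against 60.4, 53.5 and 57.2 RPKM in KO cTEC (1.30, adjusted p = 1.9e-06), and Ctsc (1.15) and Ctsa (0.62) were higher. Lamp2, needed for the fusion of lysosomes, was at 107, 114 and 108 RPKM in KO mTEClo, against 156, 252 and 209.8 RPKM in KO cTEC (-0.88, adjusted p = 6.8e-05), Lamp1 was lower (-0.26) and Sqstm1 was not called (0.02, adjusted p = 0.83).

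Costimulatory and inhibitory ligands gave 2 higher and 5 lower of 16 (1 of those lower, Tnfsf4, passed only through KO cTEC). Cd83 (-2.73), Cd86, a ligand of CD28 (-2.46), Cd274, which encodes PD-L1 (-0.41), and Tnfsf4 (-1.60) were lower with Cd70, whereas Pdcd1lg2, which encodes PD-L2, was at 16.4, 16.8 and 16.2 RPKM in KO mTEClo, against 13.2, 11.3 and 5.58 RPKM in KO cTEC (0.80, adjusted p = 0.007) and Pvrl2 was higher (0.72). Icosl was not called (-0.32, adjusted p = 0.32), and Tnfsf4 did not pass the filter without KO cTEC replicate 1. The lower ones numbered 3 without KO mTEClo replicate 2 or KO cTEC replicate 1, and Cd274 was not called without KO mTEClo replicate 1 or 2 or KO cTEC replicate 3 (-0.30 to -0.35, adjusted p = 0.062 to 0.07). Of 18 Notch pathway genes 4 were higher (22.2%) and 5 lower (27.8%), beside 22.3% and 20.8% of all genes, and those lower numbered 3 without KO cTEC replicate 2. The ligand genes Jag1 (-0.58, adjusted p = 0.00014), Jag2 (-0.85, adjusted p = 0.0003) and Dll1 (-0.78, adjusted p = 0.0036) were lower with Dll4, whereas the ligand gene Dll3 was higher (4.58). The target Nrarp, which dampens Notch signals, was at 13.02, 9.698 and 8.19 RPKM in KO mTEClo, against 2.54, 2.52 and 2.903 RPKM in KO cTEC (1.89, adjusted p = 5.6e-08). Heyl, a transcriptional repressor, was at 6.998, 7.67 and 6.21 RPKM in KO mTEClo, against 2.88, 2.498 and 2.16 RPKM in KO cTEC (1.44, adjusted p = 4.1e-06). Notch2 was slightly higher (0.40) and the target Hes1 not called (0.04, adjusted p = 0.88).

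Of 23 tumour necrosis factor receptor and NF-kB genes 16 were not called. The calls were 3 higher (13%) and 4 lower (17.4%), beside 22.3% and 20.8% of all genes. Nfkb1 (-0.88, adjusted p = 6.5e-06), Rel (-0.96, adjusted p = 0.001) and Tnfrsf1a (-0.32, adjusted p = 0.025) were lower, and Tnfaip3, a brake of the pathway, was at 131, 159.6 and 155 RPKM in KO mTEClo, against 119, 66.3 and 68.1 RPKM in KO cTEC (0.86, adjusted p = 0.0015). Nfkbie (0.505) and Map3k14, the kinase of the alternative pathway (0.42), were higher. The counts were 8 higher and 3 lower without KO cTEC replicate 1, and Nfkbia, not called with it (0.19, adjusted p = 0.31), was at 0.40 (adjusted p = 0.0061). Those lower numbered 2 without KO mTEClo replicate 2 and 7 without KO cTEC replicate 3. Tnfrsf1a was not called without KO mTEClo replicate 1 or 2 or KO cTEC replicate 2 or 3 (-0.20 to -0.32, adjusted p = 0.062 to 0.14). Map3k14 was not called without KO mTEClo replicate 2 or KO cTEC replicate 3 (0.23 to 0.38, adjusted p = 0.054 to 0.073).

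Tuft cell genes were higher in KO mTEClo. Of 17 listed genes 16 were in the tables (Sh2d6 had no entry), all 16 were tested and all 16 were called higher, against 22.3% of all genes, with a median of 1.60, or 2.01 without KO cTEC replicate 1. Pou2f3, the transcription factor on which tuft cells depend, was at 65.9, 73.4 and 66.1 RPKM in KO mTEClo, against 39.5, 17.3 and 18.2 RPKM in KO cTEC (log2 fold change 1.56, SE 0.32, adjusted p = 0.0013). The taste channel gene Trpm5 was at 222, 257 and 275 RPKM in KO mTEClo, against 141, 62.9 and 64.5 RPKM in KO cTEC (1.59, adjusted p = 0.0045). Gnat3, which encodes the taste G protein gustducin, was at 198, 145 and 126 RPKM in KO mTEClo, against 56.5, 20.7 and 22.8 RPKM in KO cTEC (2.35, adjusted p = 0.0024). In these 3 genes the groups did not overlap, and KO cTEC replicate 1 was the highest of the KO cTEC libraries. Il25, the cytokine by which tuft cells alert innate lymphocytes, was at 51.6, 68.2 and 53.7 RPKM in KO mTEClo, against 33.7, 15.4 and 19.2 RPKM in KO cTEC (1.41, adjusted p = 0.0057). Dclk1 (1.498), Alox5 of leukotriene synthesis (1.38), Hmx2 (2.04), Plcb2 of taste transduction (1.86), Avil (1.61), Gfi1b (1.69), Ptgs1 (1.23), L1cam (1.38) and Chat, which makes acetylcholine (1.42), were higher too. The summed RPKM of the list was 1421, 1523 and 1469 in KO mTEClo, against 817, 357 and 372 in KO cTEC. In WT it was 665, 995 and 463 in mTEClo, against 61.5, 151 and 73.3 in cTEC. KO cTEC libraries thus held tuft transcripts, KO cTEC replicate 1 most, and the part of tuft cells in other results was not tested.

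The whole family of bitter taste receptors followed. It was taken up after its values were seen, by the symbol Tas2r and a number, and shares 3 genes with the tuft list. Of 35 genes, 32 were tested (3 of them passed only through KO mTEClo) and 32 were called higher, with a median of 2.42, a range of 1.03 to 4.52 and adjusted p-values up to 0.04. For all 32 the KO mTEClo libraries stood above the KO cTEC libraries, beside 24.2% of all tested genes. The 3 that passed only through KO mTEClo had to do so, and the other 3 genes were filtered out. By mean level the tested members ran from 0.176 to 25.2 RPKM in KO mTEClo. Tas2r108 was at 28.5, 24.3 and 22.9 RPKM in KO mTEClo, against 12.05, 3.99 and 4.23 RPKM in KO cTEC (log2 fold change 2.07, SE 0.44, adjusted p = 0.0013). Tas2r105 was at 23.8, 16.02 and 14.4 RPKM in KO mTEClo, against 4.45, 2.69 and 1.396 RPKM in KO cTEC (log2 fold change 2.74, SE 0.59, adjusted p = 0.0017). Tas2r140 (chr6:133054855-133055793) showed the largest fold change, 4.52. On chromosome 6 lay 30 of the 32, of which 23 lay within chr6:131629892-133055793 (mm10) and 7 within chr6:23969161-42435461. Reads shared between close paralogs cannot be separated in these tables, so single values within the family are uncertain.

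Tas2r108 is shown with the 250 bases before its RefSeq start, because POU2F3 belongs to the factors that bind the octamer ATTTGCAT. Capitals mark that octamer (or its reverse complement ATGCAAAT, both strands searched). A match was found for 7 of 31 family members with an entry (22.6%, Tas2r107, Tas2r108, Tas2r118, Tas2r126, Tas2r135, Tas2r137 and Tas2r144), for 1 of 15 tuft list genes (6.67%) and for 1.81% of 27025 genes. The members descend from each other and are not independent, and the match says nothing about binding.
Tas2r108, chr6:40493342-40493591, plus strand: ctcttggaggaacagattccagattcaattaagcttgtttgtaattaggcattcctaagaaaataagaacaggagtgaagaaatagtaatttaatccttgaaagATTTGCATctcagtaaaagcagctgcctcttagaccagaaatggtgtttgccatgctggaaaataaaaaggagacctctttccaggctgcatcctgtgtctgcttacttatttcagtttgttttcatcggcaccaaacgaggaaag

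**Figure D3:**
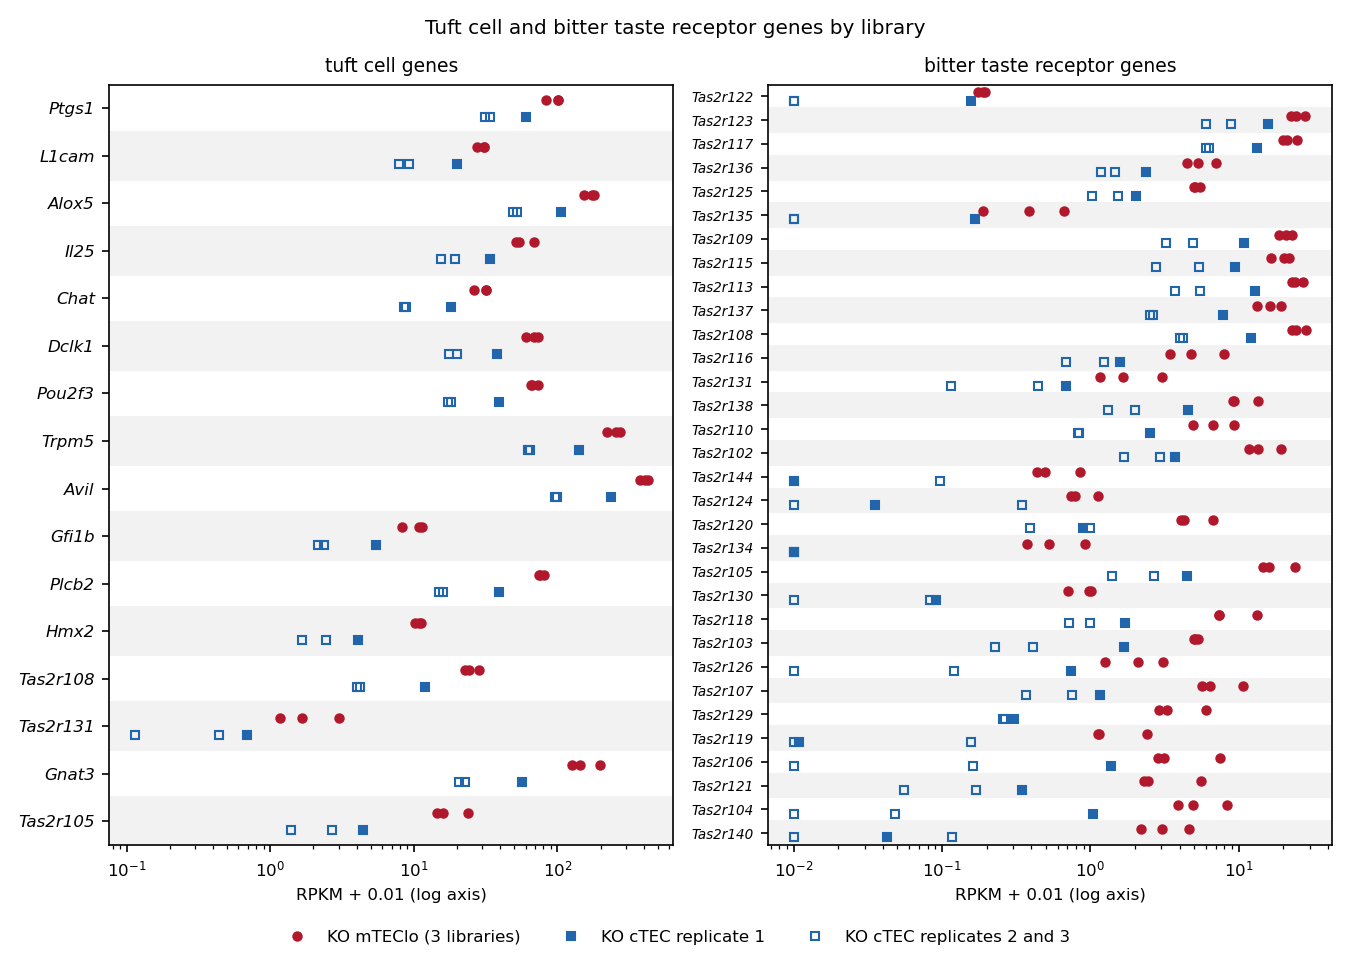
RPKM plus 0.01 on a log axis for the 16 tuft cell genes (left) and the 32 tested bitter taste receptor genes (right), one point per library, with KO mTEClo as red circles drawn above KO cTEC as blue squares (filled for replicate 1). The red points of every gene lie right of its blue points, and Tas2r140 at the bottom has the largest fold change, 4.52.

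Genes of M cells, the epithelial cells that sample microbes, gave 4 higher of 8 and none lower. Spib, the factor that specifies them, was at 170.4, 181 and 163 RPKM in KO mTEClo, against 93.6, 35.6 and 37.9 RPKM in KO cTEC (1.77, adjusted p = 0.0002). Tnfaip2 (0.85), Sox8 (1.23) and the chemokine Ccl20 (1.64) were higher, and Marcksl1 was not called (0.07, adjusted p = 0.62). Ccl20 was at 0.88 without KO cTEC replicate 2 (adjusted p = 0.034).

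Keratins and cornification genes were mostly higher in KO mTEClo. Of 21 keratins 13 were higher and 1 lower, with a median of 0.72. The lower one, Krt6a, was at 6.76, 5.04 and 10.1 RPKM in KO mTEClo, against 14.3, 12.1 and 10.6 RPKM in KO cTEC (-0.80, adjusted p = 0.024) and was not called without KO cTEC replicate 1 (adjusted p = 0.068), and no keratin was lower without KO mTEClo replicate 1 or 2 either. Krt77, a suprabasal keratin, was at 33.3, 24.9 and 19.3 RPKM in KO mTEClo, against 5.01, 1.91 and 2.32 RPKM in KO cTEC (log2 fold change 3.12, SE 0.43, adjusted p = 3.6e-05). Krt10, the keratin of differentiating epidermis, was at 18.4, 17.5 and 14.3 RPKM in KO mTEClo, against 5.12, 4.72 and 6.92 RPKM in KO cTEC (1.58, adjusted p = 4.6e-06). Krt16, a keratin of activated epidermis, was at 20.6, 16.5 and 11.9 RPKM in KO mTEClo, against 2.44, 2.896 and 4.397 RPKM in KO cTEC (2.30, adjusted p = 1.3e-06). All 3 were higher in every KO mTEClo library, and Krt80 rose too (1.17). Of 25 cornified keratinocyte genes 22 were tested, with 17 higher, 1 lower (Tgm3, -1.15, adjusted p = 0.009) and a median of 1.67. Lor was at 31.6, 15.6 and 12.7 RPKM in KO mTEClo, against 1.34, 1.74 and 0.235 RPKM in KO cTEC (4.27, adjusted p = 1.8e-05). Ivl, which encodes involucrin of the same envelope, was at 6.54, 6.67 and 5.96 RPKM in KO mTEClo, against 2.08, 1.32 and 0.748 RPKM in KO cTEC (2.23, adjusted p = 1e-05). Sprr1a, a proline-rich envelope protein, was at 198, 175 and 156 RPKM in KO mTEClo, against 75.1, 57.2 and 46.4 RPKM in KO cTEC (1.58, adjusted p = 3.1e-06). Sbsn (1.66) was higher, and Sprr1b, with overlap, was not called (1.33, adjusted p = 0.11), or higher without KO cTEC replicate 2 (2.10, adjusted p = 0.014).

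Genes of cell contacts had calls in both directions. Of 18 genes of desmosomes and hemidesmosomes 4 were higher (22.2%) and 2 lower (11.1%), beside 22.3% and 20.8% of all genes. The desmosomal cadherins of upper epidermal layers Dsg1a, at 33.5, 35.5 and 21.7 RPKM in KO mTEClo, against 8.297, 5.201 and 2.78 RPKM in KO cTEC (2.56, adjusted p = 3.6e-06), and Dsc1 (1.99, adjusted p = 7.5e-05) were higher with Dsg2 (0.94) and Pkp2 (1.28). Dsc3, the basal desmocollin, was at 58.2, 61.5 and 60.7 RPKM in KO mTEClo, against 71.6, 114 and 127 RPKM in KO cTEC (-0.75, adjusted p = 0.0013), and Dst, which anchors keratins in hemidesmosomes, was lower (-0.35). Of the 18 genes of the list 12 were not called, among them Perp (-0.27, adjusted p = 0.062), which was lower without KO cTEC replicate 1 (-0.43, adjusted p = 0.00048). The lower genes of the list numbered 1 without KO mTEClo replicate 1 or 2 or KO cTEC replicate 2 or 3 and 4 without KO cTEC replicate 1. Dst was not called without KO mTEClo replicate 1 or 2 or KO cTEC replicate 2 or 3 (-0.28 to -0.35, adjusted p = 0.053 to 0.11). Tight junction genes were higher in 9 and lower in 3 of 19, with Cldn6 at 2.57, 1.76 and 2.02 RPKM in KO mTEClo, against 1.54, 0.380 and 0.266 RPKM in KO cTEC (1.73, adjusted p = 0.0016), F11r (0.43), Marveld3 (0.502) and occludin, Ocln (0.62), higher and Cldn1 lower (-0.34). Lower tight junction genes numbered 1 without KO cTEC replicate 2 or 3.

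Many matrix genes were lower in KO mTEClo. In the basement membrane and matrix list 18 of 31 were lower (1 passed only through KO cTEC) and 7 higher (4 without KO mTEClo replicate 3), with a median of -0.50. Dcn, decorin, was at 28.2, 40.3 and 51.4 RPKM in KO mTEClo, against 166, 389 and 392 RPKM in KO cTEC (log2 fold change -2.92, SE 0.27, adjusted p = 7.7e-07). Col4a5, at 2.65, 2.92 and 4.08 RPKM in KO mTEClo, against 11.7, 17.8 and 19.5 RPKM in KO cTEC (-2.30, adjusted p = 1.3e-07), and Col4a6 (-3.09, adjusted p = 3.1e-07), a pair of basement membrane collagens, were lower. Nid1, which links the membrane, was at 0.214, 0.230 and 0.434 RPKM in KO mTEClo, against 2.61, 3.405 and 3.35 RPKM in KO cTEC (-3.07, adjusted p = 2.2e-07), and Hspg2, which encodes perlecan, was lower too (-1.07, adjusted p = 2.6e-06). None of these overlapped between the groups. Outside the list, Col6a2 of collagen microfibrils was higher, at 210, 229 and 244 RPKM in KO mTEClo, against 71.7, 80.1 and 69.7 RPKM in KO cTEC (1.62, adjusted p = 2.7e-06). The small leucine-rich proteoglycans, a family taken up after its values were seen, had 7 lower (1 passed only through KO cTEC) and 2 higher (1 without KO mTEClo replicate 2) of 14 tested, with a median of -0.82. Prelp was at 6.88, 9.504 and 14.1 RPKM in KO mTEClo, against 67.8, 119.9 and 131 RPKM in KO cTEC (-3.38, adjusted p = 1.6e-07). Ogn was at 0.256, 0.148 and 0.320 RPKM in KO mTEClo, against 6.64, 9.21 and 13.9 RPKM in KO cTEC (-4.85, adjusted p = 5e-08). Bgn, biglycan, was at 5.38, 5.66 and 6.96 RPKM in KO mTEClo, against 16.7, 30.9 and 33.5 RPKM in KO cTEC (-2.10, adjusted p = 1.7e-06). In all 3 the groups did not overlap, and without KO cTEC replicate 1, 6 of the family were lower and the median was -0.25. Fibroblasts express several of these genes. Of 10 tested fibroblast markers 4 were lower (Dcn, Lum, Col1a2 and Thy1) and 3 higher (among them Col3a1, at 21.6, 21.5 and 33.9 RPKM in KO mTEClo, against 10.97, 11.2 and 13.4 RPKM in KO cTEC, and Fbn1, 1.20, with 5 higher without KO cTEC replicate 1), Col1a2 was at 1.19, 1.07 and 1.23 RPKM in KO mTEClo, against 1.98, 3.64 and 6.502 RPKM in KO cTEC, and Cd34 was not called (0.75, adjusted p = 0.053). The summed RPKM of the list was 75.2, 86.4 and 110.4 in KO mTEClo, against 202, 426 and 439 in KO cTEC, most of it Dcn in KO cTEC, and its part in the matrix result was not tested.

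Growth factor pathways had members called in both directions. Of 25 FGF, EGF and Hedgehog genes 6 were higher and 8 lower. The receptor Fgfr4 was at 2.600, 2.47 and 2.72 RPKM in KO mTEClo, against 0.262, 0.520 and 0.488 RPKM in KO cTEC (2.40, adjusted p = 3.8e-07). The ligand Fgf1 was at 5.04, 5.71 and 7.61 RPKM in KO mTEClo, against 17.4, 22.7 and 28.2 RPKM in KO cTEC (-1.87, adjusted p = 1.7e-06). Among Hedgehog components the calls went both ways, with the inhibitor Hhip higher (1.27, adjusted p = 6.6e-05), the factor Gli2 lower (-1.66, adjusted p = 2.9e-05), the coreceptor Gas1 lower (-1.54, adjusted p = 0.0002) and Boc not called (-0.02, adjusted p = 0.94). Egfr was lower (-0.78). Of 30 WNT and BMP genes 7 were higher and 9 lower. The ligand Wnt10a was at 19.2, 17.3 and 14.7 RPKM in KO mTEClo, against 5.17, 6.21 and 5.83 RPKM in KO cTEC (1.55, adjusted p = 8.6e-07). The receptor Fzd2 was at 32.1, 30.5 and 27.3 RPKM in KO mTEClo, against 12.04, 15.1 and 13.3 RPKM in KO cTEC (1.15, adjusted p = 9.7e-06). The nuclear effector Tcf7l2 (-1.001) and the coreceptor Lrp6 (-0.80) were lower. Fst, follistatin, which traps activins, was at 16.2, 17.7 and 22.5 RPKM in KO mTEClo, against 38.2, 75.4 and 86.05 RPKM in KO cTEC (-1.75, adjusted p = 3.7e-05), and Id3 was not called (-0.20, adjusted p = 0.59).

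Genes of other peripheral cell types were sought in both populations. Neuroendocrine genes gave 9 of 13 tested higher and none lower (1 without KO mTEClo replicate 1 or KO cTEC replicate 2), with a median of 2.16. Scg2, a secretogranin, was at 11.8, 7.65 and 10.4 RPKM in KO mTEClo, against 3.002, 0.840 and 2.37 RPKM in KO cTEC (2.36, adjusted p = 0.00019). Ret, a receptor of neural crest derivatives, was at 2.395, 2.38 and 1.29 RPKM in KO mTEClo, against 0.716, 0.124 and 0.202 RPKM in KO cTEC (2.43, adjusted p = 0.0001). Snap25 (2.17), Stxbp5l (2.37), Scg3 (2.52) and Cacna2d1 (0.97) were higher, whereas Syt1 was not called (0.53, adjusted p = 0.17), or higher without KO cTEC replicate 1 (0.96, adjusted p = 0.0036). Muscle genes gave 11 of 14 tested higher and 1 lower (Myh1, -1.75, adjusted p = 0.00081), with a median of 1.65, 1 of the 14 having passed only through KO mTEClo. Ckm, muscle creatine kinase, was at 3.497, 2.83 and 2.29 RPKM in KO mTEClo, against 0.551, 0 and 0.00728 RPKM in KO cTEC (3.94, adjusted p = 5.9e-05). Actc1, cardiac actin, was at 1.97, 2.67 and 2.29 RPKM in KO mTEClo, against 0.0758, 0.386 and 0.0454 RPKM in KO cTEC (3.37, adjusted p = 2.6e-06). Des, desmin, was at 25.03, 22.6 and 12.4 RPKM in KO mTEClo, against 6.61, 3.41 and 2.72 RPKM in KO cTEC (2.25, adjusted p = 8.7e-06). Tnnc2 (3.66) and Tnnt3 (1.70) of the troponin complex were higher, and Actn3 was not called (0.22, adjusted p = 0.38). Of 12 tested airway genes 3 were higher (1 without KO cTEC replicate 3) and 3 lower. The secreted Bpifa1 was at 126, 152 and 161 RPKM in KO mTEClo, against 347, 828 and 323 RPKM in KO cTEC (-1.64, adjusted p = 0.0019), and Ccdc39 (-1.57) and Wfdc2 (-0.58) were lower. Scgb1a1, the club cell secretoglobin, was at 12.1, 14.6 and 15.97 RPKM in KO mTEClo, against 8.22, 4.87 and 2.63 RPKM in KO cTEC (1.56, adjusted p = 0.017), with Tekt1 (2.47) and Rsph1 (1.49) higher and Ltf not called (0.10, adjusted p = 0.89). Wfdc2 was not called without KO mTEClo replicate 1 or 2 or KO cTEC replicate 1 or 3 (-0.46 to -0.53, adjusted p = 0.072 to 0.14). Scgb1a1 was not called without KO mTEClo replicate 3 or KO cTEC replicate 3 (1.15 to 1.47, adjusted p = 0.052 to 0.086). Rsph1 was not called without KO cTEC replicate 2 or 3 (1.14 to 1.20, adjusted p = 0.061 to 0.072).

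Tissue-restricted lists differed in how many genes passed the filter, and no share of the whole list follows from those that did. Pancreas and gut had 12 of 30 tested, 7 higher (4 without KO mTEClo replicate 3) and none lower (Prss2 and Cel passed only through KO mTEClo), with Fabp1 at 4.601, 4.02 and 2.77 RPKM in KO mTEClo, against 1.15, 1.18 and 0.624 RPKM in KO cTEC (1.86, adjusted p = 0.00077), Vil1 (1.19), Pyy (2.60), Prss2 (3.60), Tff1 (3.09) and Cel (1.39) higher and Reg3g not called (0.38, adjusted p = 0.37). Liver and plasma genes had 13 of 20 tested, 5 higher and 2 lower (1 without KO cTEC replicate 2). Crp, C-reactive protein, was at 8.48, 9.47 and 4.78 RPKM in KO mTEClo, against 1.35, 0.917 and 0.514 RPKM in KO cTEC (2.93, adjusted p = 3.3e-06), Ambp (2.79) and Ahsg (1.96) were higher, and Fgg (-2.53) and Ttr (-1.48) were lower, with Hp not called (-0.43, adjusted p = 0.43). Milk, salivary and urinary genes had 5 of 19 tested, 1 higher and 3 lower. Csn2, the milk casein beta, was at 35.1, 30.4 and 16.6 RPKM in KO mTEClo, against 147, 60.1 and 48.8 RPKM in KO cTEC (-1.53, adjusted p = 0.0053), while Csn1s1, an alpha casein, was higher (1.68, adjusted p = 0.0011), a split within one gene cluster. Amy1 (-1.53) and Lcn2 (-0.49) were lower and Csn3 was not called (0.47, adjusted p = 0.55). Eye, brain and pituitary genes had 12 of 25 tested, with Mag (1.73, adjusted p = 0.00047) and Tac1 (1.64, adjusted p = 0.0049) higher, Nts (-1.60, passed only through KO cTEC) and Gh (-1.21, adjusted p = 0.022) lower and Resp18 not called (-0.27, adjusted p = 0.68). Without KO cTEC replicate 1 none of this list was called lower, and 3 were higher. Otherwise those lower numbered 0 without KO cTEC replicate 2 and 1 without KO mTEClo replicate 3 or KO cTEC replicate 3, and Nts did not pass the filter without KO cTEC replicate 1. Of 11 tested antigens linked to Fezf2, 4 were higher (36.4%, Crp, Kcnj5, 1.77, Nol4, 0.68, and Calb1, 0.88) and 3 lower (27.3%, 1 without KO cTEC replicate 2, among them Ttr and Maoa, -1.29, adjusted p = 7.6e-08), with Fezf2 itself higher. Ttr was not called without KO cTEC replicate 2 (-1.03, adjusted p = 0.069). Lcn2 was not called without KO mTEClo replicate 1 or 2 or KO cTEC replicate 3 (-0.29 to -0.44, adjusted p = 0.1 to 0.18). Gh was not called without KO mTEClo replicate 3 or KO cTEC replicate 1 or 2 (-0.80 to -1.20, adjusted p = 0.053 to 0.099). Calb1 was not called without KO mTEClo replicate 1 or KO cTEC replicate 3 (0.60 to 0.73, adjusted p = 0.066 to 0.071). Pyy was at 1.40 without KO cTEC replicate 3 (adjusted p = 0.012).

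State of the cells was read from 4 further lists. Of 20 interferon-stimulated genes 4 were higher and 4 lower (20% each), near the 22.3% and 20.8% of all genes, and 12 were not called. Irf7 was higher, at 141, 149 and 134 RPKM in KO mTEClo, against 96.4, 88.6 and 80.02 RPKM in KO cTEC (0.68, adjusted p = 6.4e-05). Oas1a (0.40) and Usp18 (0.37) were higher, Ifit1 (-0.70), Ifi44 (-0.58) and Gbp2 (-0.55) lower, and Ifi27l2a was not called (0.08, adjusted p = 0.67). Of 18 proliferation genes 17 were not called, Pcna among them (-0.01, adjusted p = 0.95), and Cdc20 was lower (-0.52, adjusted p = 0.044). Cdc20 was not called without KO mTEClo replicate 3 or KO cTEC replicate 1, 2 or 3 (-0.30 to -0.58, adjusted p = 0.056 to 0.23). Proliferation genes called lower numbered 0 without KO mTEClo replicate 3 or KO cTEC replicate 1, 2 or 3 and 3 without KO mTEClo replicate 1, and those higher 3 without KO mTEClo replicate 3. Immediate early and stress genes gave 5 of 18 higher and none lower (1 without KO cTEC replicate 1), with Egr2 at 25.1, 19.8 and 24.1 RPKM in KO mTEClo, against 11.2, 7.204 and 7.71 RPKM in KO cTEC (1.41, adjusted p = 7.9e-06), Ier2 (0.67), Jund (0.89), Btg2 (0.33) and Hsp90aa1 (0.33), whereas Fos, at 1399.6, 1427 and 1624 RPKM in KO mTEClo, against 1171, 1572 and 2307 RPKM in KO cTEC, was not called (-0.13, adjusted p = 0.65). Hsp90aa1 was not called without KO mTEClo replicate 2 or 3 or KO cTEC replicate 2 or 3 (0.28 to 0.33, adjusted p = 0.066 to 0.12). Of 12 housekeeping genes Sdha alone was called (0.34, adjusted p = 0.0021), and Eef1a1 was not (0.002, adjusted p = 0.99). Without KO cTEC replicate 1, 2 housekeeping genes were higher and 1 was lower.

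Markers of other cell types were compared between the populations. Endothelial markers were higher in KO mTEClo in 9 of 10, beside 22.3% of all genes, although 1 of them, Tie1, passed only through KO mTEClo and had to differ, with Cdh5, VE-cadherin, at 1.21, 2.599 and 3.34 RPKM in KO mTEClo, against 0.206, 0.00419 and 0.287 RPKM in KO cTEC (3.31, adjusted p = 8.4e-05), Tie1 (2.67), Egfl7 (2.80), Emcn (2.58), Plvap (2.68) and Esam (0.92) called and Kdr not (0.60, adjusted p = 0.17). The summed RPKM of the list was 32.7, 43.1 and 47.6 in KO mTEClo, against 21.97, 11.1 and 13.2 in KO cTEC. Thymocyte markers were lower in 5 of 18 (27.8%, beside 20.8% of all genes) and higher in none, with Thy1 (-1.12, adjusted p = 0.0069), Cd3g at 4.298, 2.56 and 2.38 RPKM in KO mTEClo, against 5.77, 8.299 and 6.13 RPKM in KO cTEC (-1.14, adjusted p = 0.016), Rag2 (-1.14), Dntt (-1.26) and Ptcra (-1.12) called and Lck not (-0.33, adjusted p = 0.41). Except for that of Thy1, these calls rested on single libraries, and those lower numbered 1 without KO mTEClo replicate 2 or 3 or KO cTEC replicate 2 and 3 without KO cTEC replicate 1. Cd3g was not called without KO mTEClo replicate 2 or 3 or KO cTEC replicate 2 (-0.98 to -1.03, adjusted p = 0.059 to 0.067). Rag2 was not called without KO mTEClo replicate 2 or 3 or KO cTEC replicate 1 or 2 (-0.98 to -1.07, adjusted p = 0.051 to 0.081). Dntt was not called without KO mTEClo replicate 2 or 3 or KO cTEC replicate 2 (-1.005 to -1.13, adjusted p = 0.086 to 0.11). Ptcra was not called without KO mTEClo replicate 2 or 3 (-0.99 to -1.09, adjusted p = 0.1 to 0.14). Without KO cTEC replicate 1 Ptcra did not pass the filter. Their sum was 48.9, 33.5 and 23.1 in KO mTEClo, against 63.6, 67.01 and 51.7 in KO cTEC. All these levels were low beside the epithelial sum of 2438, 2437 and 2386 in KO mTEClo and 2039, 2049 and 1992 in KO cTEC, and the part of these cells in other results was not tested.

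Dendritic cell and macrophage markers were lower in 5 of 13 tested, with Sirpa (-0.90, adjusted p = 5.9e-06), Mertk (-1.93, adjusted p = 6.2e-05), Itgam (-0.99), Itgax (-1.20) and Fcgr1 (-0.90) called and Lyz2 not (-0.497, adjusted p = 0.2). Itgax, which encodes CD11c, was at 0.564, 0.588 and 1.004 RPKM in KO mTEClo, against 4.05, 1.57 and 0.789 RPKM in KO cTEC. Those lower numbered 3 without KO mTEClo replicate 1 or 2 or KO cTEC replicate 2, and 1 was higher without KO cTEC replicate 2. Itgax was not called without KO mTEClo replicate 1 or 2 or KO cTEC replicate 1 or 2 (-0.61 to -1.27, adjusted p = 0.075 to 0.22). Fcgr1 was not called without KO mTEClo replicate 1 or 2 or KO cTEC replicate 2 or 3 (-0.51 to -0.92, adjusted p = 0.084 to 0.25). Lyz2 was lower without KO mTEClo replicate 3 (-0.82, adjusted p = 0.037). Genes of activated dendritic cells, gathered after their values were seen, were lower in 13 of 20 and higher in 2 (1 without KO mTEClo replicate 1, 2 or 3 or KO cTEC replicate 2 or 3), and without KO cTEC replicate 1 lower in 9. Apart from Ccr7, Ccl22 and Apol7c, they included the growth factor receptor gene Flt3, at 0.473, 0.295 and 0.0538 RPKM in KO mTEClo, against 9.84, 3.69 and 1.07 RPKM in KO cTEC (-3.44, adjusted p = 0.00083). Cd86 was at 0.694, 0.608 and 0.539 RPKM in KO mTEClo, against 7.998, 3.52 and 1.96 RPKM in KO cTEC, and Ccl17, a ligand of CCR4, at 19.04, 13.7 and 21.6 RPKM in KO mTEClo, against 75.9, 68.9 and 43.5 RPKM in KO cTEC (-1.77, adjusted p = 0.00021). KO cTEC replicate 1 was highest in each of these, and replicate 3 was lowest. Ccl17, Ccl22 and Cd86 belong to the mature mTEC list too, where 6 of 14 genes were lower (with Ciita, H2-Aa and Cd274) and 2 higher (Fezf2 and Pdcd1lg2), at a median of -0.53. In WT cTEC, Ccr7 was at 11.8, 20.7 and 83.1 RPKM and Ccl22 at 22.2, 46.6 and 102 RPKM, so that a wide spread between cTEC libraries was present in both genotypes. Of 6 tested B cell markers 2 were lower, Igj among them (1 without KO mTEClo replicate 2 or 3 or KO cTEC replicate 1), Cd79b, at 28.1, 31.99 and 31.6 RPKM in KO mTEClo, against 23.6, 11.3 and 9.79 RPKM in KO cTEC, was higher (1.14, adjusted p = 0.0099) and Blk was not called (-0.80, adjusted p = 0.15). Cd79b was not called without KO cTEC replicate 3 (0.89, adjusted p = 0.051), and Blk was lower without KO cTEC replicate 2 (-1.27, adjusted p = 0.029). Of the erythroid markers 2 were tested and Alas2 was not called (0.19, adjusted p = 0.77).

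**Figure D4:**
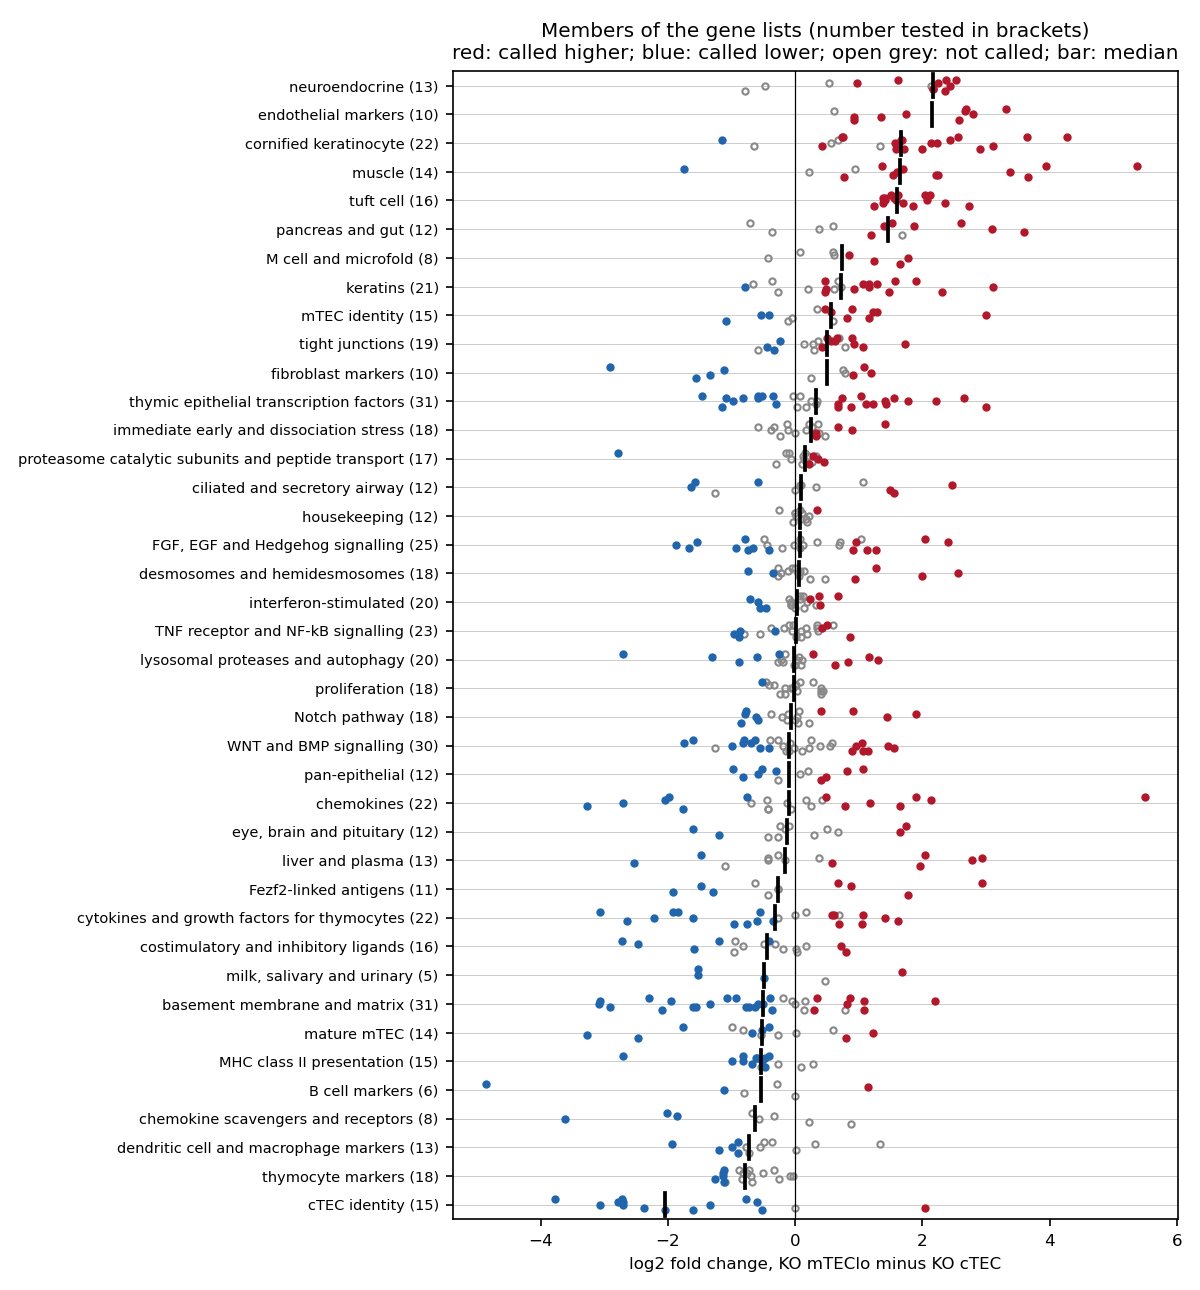
Log2 fold changes of KO mTEClo minus KO cTEC (horizontal axis) for the members of the gene lists with 4 or more tested members, one point per gene and one row per list, ordered by median (black bar). Families and lists taken up after their values were seen are not shown. The lists shown were chosen with earlier results of these data known. Red points were called higher and blue points lower in KO mTEClo. Neuroendocrine and endothelial genes have the highest medians (2.16 each) and cTEC identity genes the lowest (-2.05).

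How many genes were detected was compared over the libraries. KO mTEClo detected 16492, 16290 and 16292 genes at 0.1 RPKM or more, against 16313, 15958 and 15913 in KO cTEC. The groups overlapped, and the mean difference of 296.7 genes did not pass (two-sided exact permutation p = 0.3, where 3 against 3 libraries allow 0.1 at best). At 1 RPKM or more the difference was 48 genes (exact permutation p = 0.8). Above 0 RPKM, KO mTEClo detected 18615, 18332 and 18641 genes, against 17766, 17457 and 18000 in KO cTEC, without overlap, a difference of 788.3 genes at the smallest p that 3 against 3 libraries allow (exact permutation p = 0.1).

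The last question is whether the contrast depends on Aire, by the difference of the contrast of mTEClo and cTEC in KO from that in WT. It was called higher for 149 genes (0.905%) and lower for 684 (4.16%), with a median over all genes of -0.035. In WT alone 4558 genes (27.7%) were called higher and 3479 (21.1%) lower in mTEClo. Of the 684, 607 were called higher in WT mTEClo than in WT cTEC, and in 650 the mean was higher in KO cTEC than in WT cTEC. Without KO cTEC replicate 1, 709 were called lower and 184 higher, 547 and 115 of them the same genes. Fitted to the 12 mTEClo and cTEC libraries alone, the counts were 195 lower and 42 higher, and without KO cTEC replicate 3 they were 1243 lower and 295 higher. Leaving out KO mTEClo replicate 3 gave 402 lower and 85 higher, leaving out WT cTEC replicate 1 gave 413 lower, and leaving out KO mTEClo replicate 2, WT mTEClo replicate 1 or WT mTEClo replicate 3 gave 86, 99 or 89 higher.

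Among genes called lower the largest were Igj (difference -5.16, SE 1.01, adjusted p = 0.008), Iapp, which encodes the islet peptide amylin (difference -4.66, SE 0.79, adjusted p = 0.0032), the trypsin inhibitor Spink3 (difference -4.38, SE 0.55, adjusted p = 0.00061), Calm4 (difference -3.86, SE 0.46, adjusted p = 0.00055) and Crct1 (difference -3.76, SE 0.86, adjusted p = 0.02), both of differentiating epidermis. Crct1 was not called without KO mTEClo replicate 3 (adjusted p = 0.056). With a pseudocount of 1 the difference of Crct1 was -1.35 and was not called (adjusted p = 0.35). Quantile normalization and the fit to the 12 mTEClo and cTEC libraries did not call it either (adjusted p = 0.058 and 0.067). Calm4 was at 90.5, 61.05 and 42.5 RPKM in KO mTEClo, against 14.97, 11.1 and 8.74 RPKM in KO cTEC, and at 30.9, 39.5 and 32.2 RPKM in WT mTEClo, against 0.180, 0.590 and 0.321 RPKM in WT cTEC. Its mean in cTEC was 11.6 RPKM in KO and 0.364 RPKM in WT, and in mTEClo 64.7 RPKM in KO and 34.2 RPKM in WT, so both populations held more of it in KO, cTEC by the larger factor. Fezf2 was at 56.8, 46.5 and 40.3 RPKM in KO mTEClo, against 31.9, 19.2 and 13.4 RPKM in KO cTEC, and at 57.04, 63.3 and 69.03 RPKM in WT mTEClo, against 4.35, 7.02 and 5.74 RPKM in WT cTEC (difference -2.24, SE 0.32, adjusted p = 0.0013). Cldn3 (-1.46), Cldn4 (-1.62), Krt16 (-2.82), Ivl (-3.13), Sprr1a (-1.53) and Spib (-1.77) were also called lower in this test. No gene of the tuft list and none of the 32 bitter taste receptor genes was called in this limma test, where 10 of 16 and 2 of 32 had an unadjusted p under 0.05, and the median differences were -1.22 and -0.23. The fold change of Pou2f3 was 1.56 in KO and 2.55 in WT (difference -0.999, SE 0.46, adjusted p = 0.26).

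Genes called higher were led by Acta1 (difference 3.26, SE 0.68) and the growth factor gene Nrg2 (difference 3.12, SE 0.47, adjusted p = 0.0017). Then came Ndufa4l2, a protein of the respiratory chain induced by low oxygen (difference 2.63, SE 0.35, adjusted p = 0.00091). Fam183b (difference 2.62, SE 0.57) and Myh1, a fast muscle myosin (difference 2.54, SE 0.49, adjusted p = 0.0068), followed. Acta1 and Fam183b passed the filter only through KO mTEClo, so their differences are descriptions and no p-value is given. With a pseudocount of 1 the difference of Fam183b was 0.48. It was not called there, nor in the fit to the 12 mTEClo and cTEC libraries. Acta1 was at 0.960, 1.01 and 0.310 RPKM in WT mTEClo, against 0.0273, 0.186 and 0.0605 RPKM in WT cTEC, so the KO mTEClo libraries lay above the WT mTEClo libraries. Of the cortical identity genes Cd83 alone was called (difference 1.65, SE 0.42, adjusted p = 0.034), and Psmb11 (0.52), Prss16 (0.64) and Ly75 (0.03) had adjusted p-values of 0.54, 0.35 and 0.97.

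**Figure D5:**
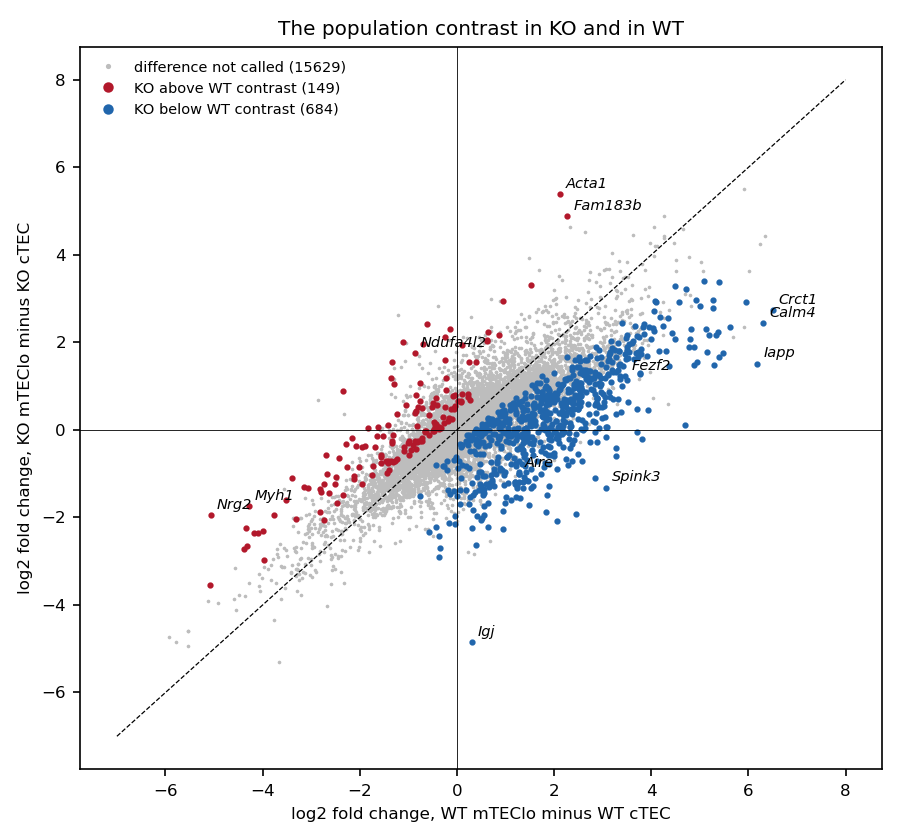
Log2 fold change of mTEClo minus cTEC in KO (vertical axis) against that in WT (horizontal axis) for the 16462 tested genes, with the line of equal change dashed. Blue points are the 684 genes whose KO contrast was called lower than the WT contrast and red points the 149 called higher, and Igj (-5.16) and Acta1 (3.26) carry the largest differences.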

How the data were processed

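Total RNA of sorted thymic epithelial cells was sequenced in 18 libraries of 6 groups with 3 replicates each, and 1 table per library was deposited. Per the submitters' processing notes the build was mm10 and CASAVA 1.8.2 was used; aligner settings and gene annotation: not given in the sources used here. The RPKM values were computed by the authors, per kilobase and library total. A second deposited column is a signal, the aligned bases summed per gene, used here for depth only; between 10.5% and 18.8% of its low values were multiples of 100, too few for read numbers to be recovered, and no count test was run.

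Genes with 0.1 RPKM or more in 3 or more of the 6 libraries were tested with limma 3.58.1 (R 4.3.3; lmFit, contrasts and eBayes with a trend) on log2(RPKM + 0.1) with group means over all 18 libraries, and p-values were adjusted by Benjamini-Hochberg over all 16462 genes, called under 0.05. Fold changes are on this scale and understate those of low genes. Data were simulated for KO mTEClo against KO cTEC with 16462 genes, of which 100 were changed by 1 and 100 by 2 on the log2 scale. Each gene had the same normal spread in all groups. Of those changed by 1, 67% were called, and of those changed by 2, 93%, with 3.61% false among the calls. The real comparison called 43.2% of genes and KO cTEC replicate 1 stood apart, so these rates need not hold for it.

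The comparison and the gene lists (41 lists with 750 entries, and the families taken up after their values were seen) were chosen with earlier results of these data known. Named were Aire, the 15 largest rises and 15 largest falls and the 5 and 5 largest differences between the genotypes among called genes without overlap and with a mean of 1 RPKM or more in the higher KO group, up to 6 called members with the smallest adjusted p of each list, the not called member with the highest mean RPKM, and all cortical and medullary identity genes. Predicted gene models, small RNAs and antigen receptor segments were left out of the largest changes, and Npr3, Col6a2, Cd70, Itgax, Cd86 and members of the added families were named after their values were seen. A few genes that this rule names are not reported here. Alternatives covered the pseudocount, filter, scaling, trend, replicate block, libraries in the fit and each library left out. Upstream windows come from RefSeq (GRCm38.p6).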

Additional observations from a re-analysis of the deposited data

Results flagged for a closer look

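The contrast of KO mTEClo and KO cTEC differed from that of WT mTEClo and WT cTEC, by the test of the difference itself (limma, adjusted p under 0.05), for 44 of the named genes. Values are differences of log2 fold changes, KO minus WT, and their libraries are those of the report. A lower KO contrast was called for 35 of them. Among epidermal and keratin genes the differences were Calm4 -3.86, Crct1 -3.76, Ivl -3.13, Krt16 -2.82, Dsg1a -1.78, Sprr1a -1.53, Krt80 -1.06, Krt10 -0.95 and Krt5 -0.73. Among junction genes the differences were Cldn4 -1.62, Cldn3 -1.46 and Ocln -1.28. Among neuroendocrine genes the differences were Snap25 -3.02, Syt1 -2.47, Stxbp5l -1.87 and Cacna2d1 -0.91. Among genes restricted to gut, pancreas, liver or airway the differences were Iapp -4.66, Spink3 -4.38, Scgb1a1 -3.38, Ttr -3.34, Crp -3.02, Ambp -2.49, Reg3g -2.48 and Vil1 -1.87. Among genes of brain, pituitary or mammary gland the differences were Resp18 -3.01, Nts -2.71 and Csn2 -2.76. Among regulators and signalling genes the differences were Aire -2.27, Fezf2 -2.24, Spib -1.77, Tnfrsf11a -1.80, Il12a -1.79 and Heyl -0.94. Igj (-5.16) and the class II gene H2-DMb2 (-0.54) also had a lower KO contrast. A higher KO contrast was called for 9, with differences of Acta1 3.26, Nrg2 3.12, Ndufa4l2 2.63, Fam183b 2.62 and Myh1 2.54 among the largest, followed by Col3a1 1.83, Il33 1.66, Cd83 1.65 and Fgf1 0.95. Acta1 and Myh1 are muscle genes, while Il33, Cd83 and Fgf1 were lower in KO mTEClo than in KO cTEC, by less than in WT. Acta1 and Fam183b passed the filter only through KO mTEClo and Nts only through KO cTEC. The differences of these genes are descriptions with no test.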

How the results depend on the processing

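Of 233 named results that were called, 188 kept direction and call under every setting in which the gene passed the filter, and none of the called ones reversed. Settings in which a gene did not pass the filter were not counted for it. Fitted to the 6 libraries alone the comparison called 2445 genes higher and 1970 lower, with fewer libraries to estimate the spread. For the difference between genotypes, quantile normalization gave 410 lower, housekeeping centring 94 higher, and a fit to the 12 libraries alone 42 higher and 195 lower; for the normalizations the cause was not tested. Leaving out 1 library at a time gave 2860 to 4033 genes higher and 2688 to 4033 lower in KO mTEClo, 85 to 295 higher and 402 to 1243 lower for the difference, and a difference in detected genes of 222.5 to 422.5. In single lists, the fit to 6 libraries called 3 chemokines higher, 6 class II genes lower and 4 protocadherins higher, quantile normalization 10 protocadherins higher, and housekeeping centring 2 proliferation genes higher; tuft genes numbered 16 in each of these. Housekeeping centring moved the median of all genes to 0.085.

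With the replicate number as a block the counts were 3647 higher and 3370 lower, and 136 higher and 653 lower for the difference. Deviations of same-numbered KO mTEClo and KO cTEC libraries correlated at 0.159, 0.04 and 0.25, and each library correlated best with its own number. Not every pair passed 0.1, a bound set by choice. With so few libraries these values cannot decide whether the numbers pair the samples, and the labels do not say.

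Reversals touched genes that were not called. With housekeeping centring Il7 was at 0.078, Itga6 at 0.034, Boc at 0.063 and Pcna at 0.074, and with quantile normalization Sqstm1 at -0.029, Ifi27l2a at -0.001 and Fos at 0.247. Over the libraries left out, log2 fold changes ran between these bounds: Il7 -0.243 to 0.154, Itga6 -0.162 to 0.027, Hes1 -0.175 to 0.214, Cxcl16 -0.324 to 0.041, Sqstm1 -0.029 to 0.051, Icosl -0.564 to 0.025, Boc -0.203 to 0.14, Id3 -0.513 to 0.113, Ltf -0.216 to 0.373, Reg3g -0.022 to 0.717, Resp18 -0.778 to 0.357, Ifi27l2a -0.041 to 0.155, Pcna -0.119 to 0.067, Fos -0.363 to 0.126, Eef1a1 -0.093 to 0.07 and Alas2 -0.497 to 0.696. Depth was 6.48 to 9.43 Gb in KO mTEClo and 9.12 to 11.3 Gb in KO cTEC, and values near 0.1 RPKM rest on few reads, so genes at that level are limited by counting.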

Other observations

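Ion channel and secretory gene families beyond the lists above had members called in both directions. They were taken up by symbol after their values were seen and carry no test of the family. Of 61 tested genes whose symbols start as those of potassium channels, 30 were higher (3 of them passed only through KO mTEClo and had to differ) and 10 lower in KO mTEClo, beside 22.3% and 20.8% of all genes, with a median of 0.82 (the family by symbol also holds Kcnq1ot1, a noncoding RNA). Kcnq3, a subunit of the neuronal M current, was at 13.8, 13.7 and 15.6 RPKM in KO mTEClo, against 4.88, 2.201 and 1.46 RPKM in KO cTEC (2.46, adjusted p = 2.9e-05). Kcnk16, a background channel known from pancreatic islets, was at 1.19, 1.06 and 1.15 RPKM in KO mTEClo, against 0.0344, 0.118 and 0.0319 RPKM in KO cTEC (2.97, adjusted p = 5.2e-07). Kcnma1, the large calcium-activated channel, was lower, at 10.8, 11.7 and 11.96 RPKM in KO mTEClo, against 16.6, 24.6 and 20.9 RPKM in KO cTEC (-0.83, adjusted p = 7e-05), and in all 3 the groups did not overlap. Of the 6 regulators of calcium-activated chloride channels 5 were higher, with Clca2 at 70.96, 66.2 and 57.4 RPKM in KO mTEClo, against 21.4, 19.2 and 15.1 RPKM in KO cTEC (1.81, adjusted p = 5.5e-08) and Clca6 not called. The tissue kallikreins, secreted serine proteases of which several shed keratinocytes, had 9 higher (36%) and 5 lower (20%, 3 without KO cTEC replicate 2) of 25, beside the 22.3% and 20.8% of all genes. Klk9 among those higher and Klk1b8 among those lower passed through 1 group alone. Klk7 was at 23.6, 15.8 and 13.2 RPKM in KO mTEClo, against 2.49, 4.999 and 0.0949 RPKM in KO cTEC (3.64, adjusted p = 0.0028), whereas Klk4, an enzyme of enamel, was at 0.0786, 0.224 and 0.158 RPKM in KO mTEClo, against 0.932, 0.719 and 0.547 RPKM in KO cTEC (-1.73, adjusted p = 0.00054).

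Clustered protocadherins, which are neuronal adhesion proteins, were higher in 16 of 42 and lower in none, with a median of 0.45, and without KO cTEC replicate 1 in 12 and 1. The stretches given for the gamma genes of this family do not overlap, and reads shared between close paralogs cannot be separated. Those higher numbered 7 without KO mTEClo replicate 2. Pcdhgc4 was at 1.87, 1.58 and 1.63 RPKM in KO mTEClo, against 1.42, 0.512 and 0.785 RPKM in KO cTEC (0.93, adjusted p = 0.0059). Of 41 genes by collagen symbols 21 were higher (1 passed only through KO mTEClo) and 13 lower (2 passed only through KO cTEC; Col4a3bp, among the lower, is not a collagen), with a median of 0.48, the sign opposite to the median of the basement membrane and matrix list. Col2a1, the collagen of cartilage, was at 14.4, 16.9 and 11.3 RPKM in KO mTEClo, against 1.79, 1.96 and 0.718 RPKM in KO cTEC (log2 fold change 3.26, SE 0.30, adjusted p = 7.8e-07), and Col23a1, a membrane collagen, at 0.332, 0.458 and 0.736 RPKM in KO mTEClo, against 2.87, 4.71 and 6.202 RPKM in KO cTEC (log2 fold change -2.93, SE 0.28, adjusted p = 1e-06). Of 6 tested Fc receptor genes 4 were lower (1 without KO cTEC replicate 3 and 2 without KO mTEClo replicate 1 or 2 or KO cTEC replicate 2) and none higher (1 without KO cTEC replicate 1), with Fcer1g, a signalling chain of myeloid cells, at 5.26, 4.37 and 6.23 RPKM in KO mTEClo, against 17.5, 13.5 and 9.91 RPKM in KO cTEC (-1.33, adjusted p = 0.0012). The summed RPKM of the dendritic cell and macrophage list overlapped between the groups. It was 116, 109 and 178 in KO mTEClo, against 179, 159 and 191 in KO cTEC. The part of such cells in the Fc receptor values was not tested. H2-M2, on the list of activated dendritic cells, was higher, at 109, 114 and 99.03 RPKM in KO mTEClo, against 88.99, 52.8 and 34.2 RPKM in KO cTEC (0.98, adjusted p = 0.0053), unlike most of that list.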
